A study of Homo sapiens with 4 samples.

Results

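The 10 genes described here encode amino acid transporters or a subunit of one. SLC7A11, SLC7A5, SLC3A2, SLC7A1, SLC7A6, SLC1A4, SLC1A5, SLC38A1, SLC38A2 and SLC38A9 were chosen by symbol, for their function, with earlier results of these data known. All 10 were among the 14431 genes listed in the deposited table. RNA-Seq was performed on HGC27 cells, a human gastric cancer cell line, in 2 control libraries (genotype WT) and 2 siAARS1 libraries (genotype AARS1 knockdown by small interfering RNA). AARS1 is the cytosolic enzyme that joins alanine to its tRNA, so the comparison asked how the carriers that bring alanine and other amino acids into the cell differed once this enzyme was knocked down. Both groups grew without glucose, in DMEM that held 10% serum and antibiotics, and were given 25 mM lactate. The labels give 24 h of lactate and the text of the study gives a shorter time for this experiment, so the duration is uncertain. Every library received lactate, the sequence and number of the siRNAs were not given in the sources used here, and nothing said that the replicates were separate cultures. The p-values therefore measure the spread between these libraries, which may be technical.

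Amino acids cross the plasma membrane through carriers of several families. SLC3A2 is the glycoprotein heavy chain that pairs with light chains of the SLC7 family and brings them to the cell surface. With SLC7A11 it forms the cystine/glutamate exchanger called system xc-, which supplies cysteine for glutathione, with SLC7A5 it forms the exchanger of large neutral amino acids LAT1, and with SLC7A6 it forms y+LAT2, which exchanges cationic for neutral amino acids. SLC7A1 carries arginine and lysine without a heavy chain. SLC1A4 and SLC1A5 are sodium-dependent exchangers of small neutral amino acids, alanine among them, and SLC1A5 also carries glutamine. SLC38A1 and SLC38A2 take up alanine and glutamine together with sodium against their gradient, and SLC38A9 sits in the lysosome membrane, where it signals arginine to mTORC1. Several of these genes are known targets of ATF4, the transcription factor that cells induce when an amino acid or its charged tRNA runs short.

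Summed over listed genes, each library held 30653210 to 33522573 reads, and values are given in CPM, read counts scaled to the size of the library. AARS1 (listed as AARS) had 428 and 417 CPM in the controls against 292 and 298 CPM after knockdown, so the targeted transcript remained at 69.7% of its control level. Of 14199 genes tested with limma, 70.7% passed at a Benjamini-Hochberg adjusted p-value under 0.05 (32.6% higher in siAARS1 and 38.0% lower), and the median log2 fold change over all of them was -0.05. Across genes the fold change followed the composition of the transcripts, with a rank correlation of -0.65 with GC content and 0.30 with length over 13819 genes. The log2 fold change of AARS1 was -0.52, and -0.33 with a smooth trend on these properties taken out. It was -0.45 with the coding and 3′ untranslated regions taken separately. Of the cell identity markers, none of 9 gastric lineage genes was listed, while 2 of 5 epithelial genes (KRT8 and CDH1, 6.14 to 27.3 CPM summed) and 4 of 4 fibroblast genes (2098 to 2906 CPM summed, most of it COL1A1) were. COL1A1 was at 2320 and 2399 CPM in the controls against 1644 and 1542 CPM after knockdown, and LUM at 118 and 125 against 211 and 225 CPM. Of 3 mesenchymal markers 2 were listed, VIM and ZEB1, and they moved in opposite directions. VIM was lower, at 5131 and 5068 CPM in the controls against 4710 and 4599.5 CPM after knockdown. ZEB1 was at 6.16 and 6.84 CPM in the controls against 50.03 and 52.3 CPM after knockdown. The summed epithelial markers were 27.0 and 27.3 CPM in the controls against 6.14 and 7.29 CPM after knockdown. The part of these differences in the results on transporters was not tested.

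Of the 10 transporters, 9 were called at that threshold, 5 of them higher in siAARS1 and 4 lower. That share is read against the 70.7% of all genes called. In the same 9 genes the CPM of the groups did not overlap, as in 85.1% of all genes. SLC7A11, SLC38A1 and SLC38A2 rose by more than 2-fold, where 10.6% of all genes were called at least 2-fold higher. The means of the other 7 genes differed by at most 1.33-fold. The 10 genes had a median log2 fold change of 0.08.

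**Figure D1:**
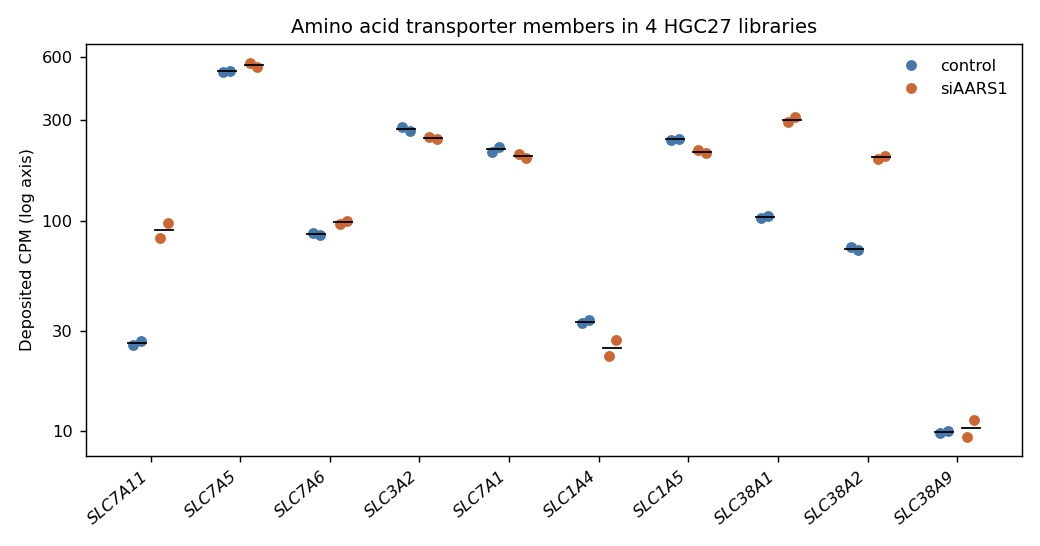
Deposited CPM (log axis) of the 10 transporter genes in each of the 4 libraries, with the 2 libraries of a group as points and their mean as a line. SLC7A11, SLC38A1 and SLC38A2 lie far higher in siAARS1, and SLC38A9 is the gene whose groups overlap.

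Promoter sequences were read for 9 of the 10 genes (17 windows from 250 bases before to 50 bases after a start, RefSeq, GRCh38.p14), with no entry for SLC7A11. They are shown because ATF4 acts through the C/EBP-ATF response element, searched here as TGATGNAA on both strands. The letters were in 5 of the 17 windows (29.4%), each from a different gene, and in 3.62% of all 35116 windows of this length. The matches are printed 5′ to 3′ on the strand of the gene, with the matching letters in capitals (on the other strand in SLC1A4 and SLC3A2).
SLC38A1, chr12:46266502-46266531, strand -: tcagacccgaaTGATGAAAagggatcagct
SLC1A4, chr2:64989381-64989410, strand +: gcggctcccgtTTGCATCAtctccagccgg
SLC1A5, chr19:46784893-46784922, strand -: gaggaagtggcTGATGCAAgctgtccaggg
SLC7A1, chr13:29595663-29595692, strand -: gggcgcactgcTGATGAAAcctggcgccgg
SLC3A2, chr11:62881719-62881748, strand +: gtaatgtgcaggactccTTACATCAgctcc
Each position counts from the start on which that window was built. The match began 4 bases before that start in SLC38A1, 7 bases before it in SLC1A4 and 97 bases before it in SLC1A5. In SLC7A1 and SLC3A2 it began at base 8 and base 38 after that start. SLC38A1, SLC1A4, SLC1A5 and SLC3A2 had further windows, at other starts, without a match. Of these 5 genes, SLC38A1 was higher on the deposited CPM and the rest were lower. These directions depended on the trend with GC content and length. With that trend taken out SLC38A1 (0.39), SLC1A5 (0.14), SLC3A2 (0.17) and SLC7A1 (0.074) were called higher and SLC1A4 (-0.23) lower. With the coding and 3′ untranslated regions taken separately, SLC38A1, SLC1A5 and SLC3A2 were higher and SLC7A1 (-0.087) and SLC1A4 (-0.19) lower. A match is a description of letters and not of a bound site.

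SLC7A11, the light chain of system xc-, showed the largest rise of the 10 genes on the deposited CPM. SLC7A11 (ENSG00000151012; chromosome 4, 138164097 to 138242349, minus strand, GRCh38) had 25.7 and 26.9 CPM in the controls against 83.2 and 97.9 CPM after knockdown, from 875, 855, 2568 and 3253 reads. Both siAARS1 libraries lay above 3 times the control level, and they differed from each other by more than the controls did. The means of 26.3 ± 0.911 and 90.5 ± 10.4 CPM (SD, n = 2) gave a 3.44-fold difference of means. The log2 fold change was 1.74 with an SE of 0.0649 (limma adjusted p = 5.68e-16) on the log2(CPM + 1) scale. As the RNA came from whole cultures, a change in each cell and a change in the share of cells that express the gene cannot be told apart. Because fold changes followed GC content and length, each is also given after 2 corrections, one for these properties of the whole transcript (whole-transcript correction) and one for those of its coding and 3′ untranslated regions taken separately (region-wise correction). They left SLC7A11 at 0.082 (limma adjusted p = 0.152) and 0.93 in that order. An antisense gene, SLC7A11-AS1, overlaps its exons, and the use of strand in counting was not stated.

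SLC3A2, the heavy chain that SLC7A11 needs, moved the other way. SLC3A2 (ENSG00000168003; chromosome 11, 62856102 to 62888875, plus strand) had 278 and 265 CPM in the controls against 249 and 245 CPM after knockdown. The siAARS1 libraries lay just under the lower control library, and the log2 fold change was -0.14 with an SE of 0.0379 (limma adjusted p = 0.00316), turning to 0.17 after the whole-transcript correction and 0.13 after the region-wise correction. Without control replicate 1 it was -0.10 and not called (limma adjusted p = 0.0844).

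SLC7A5 and SLC7A6, light chains that also pair with SLC3A2, differed little. SLC7A5 (ENSG00000103257; chromosome 16, 87830023 to 87869488, minus strand), the catalytic chain of LAT1, had 508 and 514 CPM in the controls against 562 and 536 CPM after knockdown. Both siAARS1 libraries were slightly above the controls, and the log2 fold change of 0.10 with an SE of 0.0356 (limma adjusted p = 0.0131) turned to -0.12 under median scaling and was not called without control replicate 1 or without siAARS1 replicate 1. Both corrections raised it, to 0.44 and 0.38. SLC7A6 (ENSG00000103064; chromosome 16, 68264516 to 68301823, plus strand), the chain of y+LAT2, had 87.0 and 85.1 CPM in the controls against 96.7 and 99.99 CPM after knockdown. Its log2 fold change was 0.19 with an SE of 0.0447 (limma adjusted p = 0.000743), which became -0.029 under median scaling and 0.042 after the whole-transcript correction, and was called under neither. Exons of SLC7A6 overlap SLC7A6OS on the opposite strand, a gene at 37.4 to 40.7 CPM in the 4 libraries.

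A plain ratio of CPM within a library does not depend on how that library was scaled. Differences between groups are given on the log2(CPM + 1) scale, which lowers them slightly for scarce genes. The ratio of SLC7A11 to SLC3A2 in CPM was 0.0922 and 0.102 in control and 0.333 and 0.399 in siAARS1. On that scale SLC7A11 gained 1.88 on SLC3A2 in siAARS1 (1.91 with a pseudocount of 0.1), far more than the spread between replicates (pooled SD 0.146). The ratio of SLC7A5 to SLC3A2 was 1.82 and 1.94 in control and 2.25 and 2.19 in siAARS1, and that of SLC7A6 to SLC3A2 was 0.312 and 0.321 in control and 0.388 and 0.408 in siAARS1. In these 3 pairs the light chain gained on the heavy chain in both siAARS1 libraries, by 0.24 for SLC7A5 and 0.33 for SLC7A6. SLC7A8, a further light chain of SLC3A2 named here after its values were seen, did not, with ratios of 0.506 and 0.560 in control and 0.519 and 0.502 in siAARS1 that overlap. It was at 141 and 149 CPM in the controls against 129 and 123 CPM after knockdown, called lower by limma at -0.20 (adjusted p = 0.000396). An exact two-sided permutation test gave p = 0.333 for each of 5 pairs of genes tested, the smallest p that 2 against 2 libraries allow. After the whole-transcript correction the SLC7A11 pair differed by -0.086 and the SLC7A6 pair by -0.13, so the direction of both turned. After the region-wise correction the log2 fold changes of SLC7A11 (0.93), SLC7A5 (0.38) and SLC7A6 (0.22) stayed above that of SLC3A2 (0.13).

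Among the alanine carriers the SLC38 pair rose and the SLC1 pair fell. SLC38A1 (ENSG00000111371; chromosome 12, 46183063 to 46270017, minus strand), a concentrative carrier of glutamine and alanine, had 103 and 106 CPM in the controls against 293 and 311 CPM after knockdown. SLC38A2 (ENSG00000134294; chromosome 12, 46358189 to 46372867, minus strand), its paralog and the carrier known to be induced by amino acid starvation, had 74.8 and 72.6 CPM in the controls against 196 and 204 CPM after knockdown. Their means were 2.90-fold and 2.71-fold the control means, and the libraries of a group lay close together. The log2 fold changes were 1.53 with an SE of 0.0410 (limma adjusted p = 2.4e-18) for SLC38A1 and 1.43 with an SE of 0.0426 (limma adjusted p = 1.28e-17) for SLC38A2. After the whole-transcript correction they were 0.39 and 0.21 and after the region-wise correction 0.51 and 0.12, higher and called in each case. The 2 genes had a ratio of SLC38A1 to SLC38A2 of 1.37 and 1.46 in control and 1.497 and 1.53 in siAARS1.

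SLC1A5 (ENSG00000105281; chromosome 19, 46774883 to 46788594, minus strand), the glutamine exchanger ASCT2, had 242 and 244 CPM in the controls against 217 and 209 CPM after knockdown. SLC1A4 (ENSG00000115902; chromosome 2, 64988477 to 65023865, plus strand), the exchanger ASCT1 of alanine, serine and cysteine, had 32.7 and 33.7 CPM in the controls against 22.9 and 27.0 CPM after knockdown. In both genes each siAARS1 library lay below each control library, and the siAARS1 libraries of SLC1A4 were spread further apart than its controls. The log2 fold changes were -0.19 with an SE of 0.0376 (limma adjusted p = 0.00011) for SLC1A5 and -0.40 with an SE of 0.0742 (limma adjusted p = 6.00e-05) for SLC1A4. SLC1A4 stayed lower and called after the whole-transcript correction (-0.23) and after the region-wise correction (-0.19). SLC1A5 turned to 0.14 and 0.21 in that order and was called higher. The ratio of SLC1A4 to SLC1A5 was lower in siAARS1 by 0.21 on the log2(CPM + 1) scale (pooled SD 0.142). That difference was -0.068 without siAARS1 replicate 1 and -0.35 without siAARS1 replicate 2.

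The makeup of the alanine carrier transcripts shifted on the deposited CPM, and less after either correction. Levels of different genes were compared in CPM per kb of transcript, using 1 GENCODE transcript per gene. SLC1A5 made up 70.5% and 70.6% of the summed level of the 4 carriers in control and 48.0% and 45.7% in siAARS1. SLC38A1 rose from 10.7% and 10.9% of the sum to 23.2% and 24.3%, and SLC38A2 from 12.8% and 12.4% to 25.6% and 26.3%. SLC1A4 held the smallest share throughout, 6.01% and 6.16% in control and 3.21% and 3.74% in siAARS1. The sum itself was 119 and 120 CPM per kb in control and 156 and 159 CPM per kb in siAARS1, a 1.32-fold difference of means (exact two-sided permutation p = 0.333, the smallest possible). On this scale the shares of the groups did not overlap for any of the 4 genes. The whole-transcript correction also moves the control libraries, and under it SLC1A5 held 60.1% and 60.8% in the controls against 59.01% and 58.9% after knockdown. After the region-wise correction these were 59.5% and 60.5% against 59.3% and 59.4%. SLC38A2 did not keep its higher share. It held 19.1% and 18.0% against 19.3% and 18.6% after the whole-transcript correction, so the groups overlapped. After the region-wise correction its share was lower after knockdown, 20.1% and 18.8% against 18.5% and 17.8%.

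**Figure D2:**
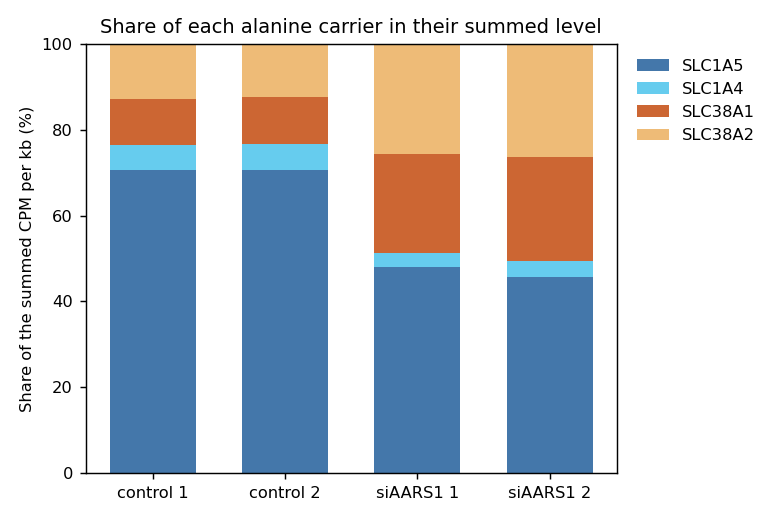
Share of SLC1A5, SLC1A4, SLC38A1 and SLC38A2 in their summed CPM per kb of transcript (%), with 1 stacked bar per library. SLC1A5 falls from 70.5% and 70.6% in the control libraries to 48.0% and 45.7% in the siAARS1 libraries, with higher shares of the SLC38 pair. With the whole-transcript correction, not drawn, the SLC1A5 shares are 60.1% and 60.8% against 59.01% and 58.9%. Those of SLC38A1 are then 15.3% and 15.5% against 17.9% and 18.0%. Those of SLC38A2 overlap, at 19.1% and 18.0% against 19.3% and 18.6%.

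SLC7A1 and SLC38A9, both tied to arginine, differed little. SLC7A1 (ENSG00000139514; chromosome 13, 29509410 to 29595688, minus strand), the arginine and lysine carrier CAT1, had 211 and 225 CPM in the controls against 207 and 198 CPM after knockdown. Control replicate 1 lay closer to siAARS1 replicate 1 than to the other control. Its log2 fold change was -0.10 with an SE of 0.0410 (limma adjusted p = 0.029), it was not called without control replicate 2 (-0.058) or without siAARS1 replicate 2 (-0.072), and the whole-transcript correction turned it to 0.074. SLC38A9 (ENSG00000177058; chromosome 5, 55625845 to 55773194, minus strand), the lysosomal arginine sensor, had 9.80 and 10.1 CPM in the controls against 9.39 and 11.3 CPM after knockdown, from 290 to 376 reads per library. Its groups overlapped, with the siAARS1 libraries on both sides of the controls. The log2 fold change of 0.05 was not called (limma adjusted p = 0.695, 95% interval -0.17 to 0.27) and became -0.17 under median scaling and -0.18 under quantile normalization. Compared with other genes of its GC content and length SLC38A9 was low, at -0.31 after that correction (limma adjusted p = 0.00814), and it was at -0.95 after the region-wise correction.

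In CPM per kb the order of the 10 transcripts in control was SLC3A2 (126), SLC7A5 (113), SLC1A5 (84.4), SLC7A1 (29.7), SLC38A2 (15.1), SLC7A6 (13.6), SLC38A1 (12.9), SLC1A4 (7.28), SLC38A9 (3.40) and SLC7A11 (2.73), as means of 2 libraries. No neighbours in that order overlapped between their control libraries. SLC7A11 was thus the scarcest of the 10 transcripts in control and held rank 8, at 9.38 CPM per kb, in siAARS1. SLC38A2 (40.9) and SLC38A1 (37.5) moved above SLC7A1 (27.6), and SLC7A5 (121) moved above SLC3A2 (114), with 124 and 118 against 115 and 113 CPM per kb in the siAARS1 libraries. Under the whole-transcript correction SLC38A2 (26.7) and SLC38A1 (25.3) stayed below SLC7A1 (29.3) in siAARS1, and SLC7A11 held rank 9 in both groups. After the region-wise correction the SLC38 pair (25.9 and 26.2) was below SLC7A1 (27.7) as well.

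The 3 transporters that rose most had the transcripts poorest in GC. GC content was 35.4% in SLC7A11, 38.1% in SLC38A2 and 41.3% in SLC38A1, and 43.1% to 61.3% in the other 7 genes. The 3 transcripts were 9645, 4888 and 8066 bases long, and in SLC7A11 the 3′ UTR took 7862 bases. All 3 fell in the quintile of genes with the lowest GC content (27.9% to 41.5%), where 79.8% of genes were called higher and the median log2 fold change was 0.77. SLC7A11 lay 0.97 above that median, SLC38A1 0.76 and SLC38A2 0.66. SLC7A5 and SLC1A5 fell in the quintile with the highest GC content (59.1% to 75.6%), where the median was -0.30, and lay 0.40 and 0.10 above it. SLC1A4 and SLC38A9 were the members below the median of their own quintile, by -0.29 and -0.16.

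**Figure D3:**
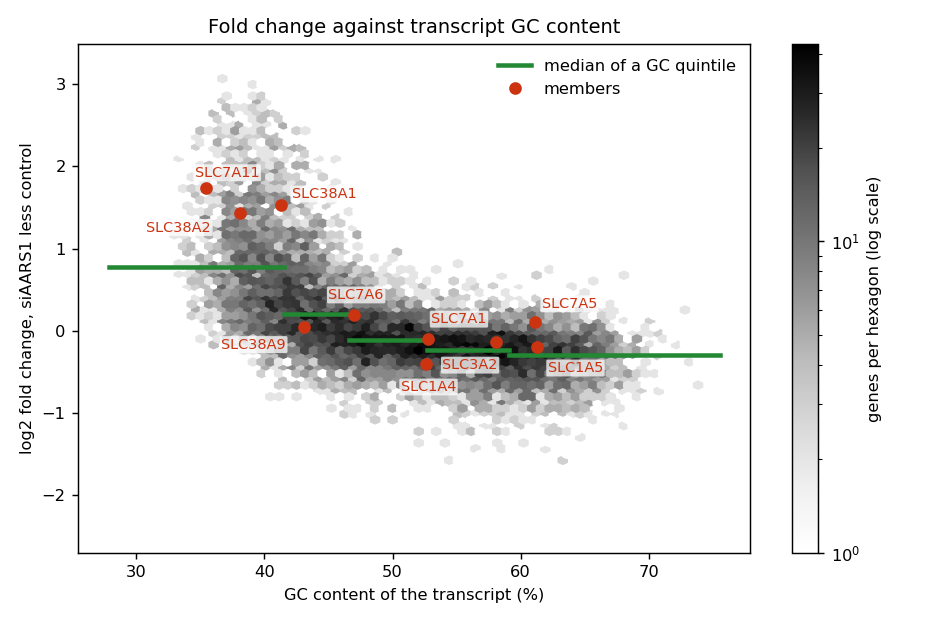
Log2 fold change (siAARS1 less control, log2(CPM + 1) scale) against transcript GC content (%) for the 13819 genes with both values, as hexagons shaded by the number of genes (log scale), with the 10 transporters in red and the median of each quintile of GC content as a green line. SLC7A11, SLC38A1 and SLC38A2 lie in the quintile with the median of 0.77, which declines to -0.30 at the highest GC content.

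With the smooth trend on GC content and length taken out of each library, 6 of the 10 transporters were called higher and 2 lower, where 32.6% of genes were called higher and 33.4% lower. The region-wise correction gave 7 higher and 3 lower, where 35.9% and 35.5% of genes were called. Median scaling gave 3 higher and 5 lower, against 23.3% and 57.6%. The members called lower were 2 with the replicate block added to the whole-transcript correction (34.1% of genes), with the longest transcript (33.5%) and with DESeq2 (27.2%). After the whole-transcript correction SLC7A5, at 0.44 (limma adjusted p = 5.98e-11), had the largest change of the 10, followed by SLC38A1. SLC38A1, SLC38A2, SLC7A5 and SLC1A4 kept their direction and their call under both corrections. SLC7A11 kept its call under the region-wise correction and lost it under the other. A correction of this kind also removes any true change that follows the same properties of the transcripts, and the cause of the trend was not tested.

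**Figure D4:**
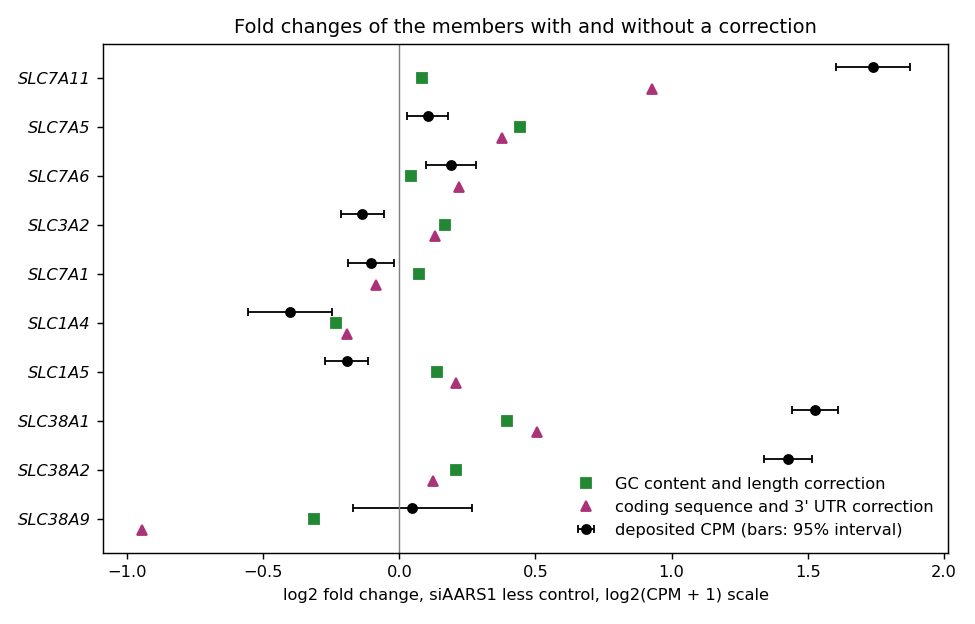
Log2 fold change (siAARS1 less control) of the 10 transporters from the deposited CPM (black points, bars are 95% limma intervals, n = 2 libraries per group), after the whole-transcript correction (green squares) and after the region-wise correction (purple triangles). SLC7A11 moves from 1.74 to 0.082 and 0.93, and SLC7A5 from 0.10 to 0.44 and 0.38.

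Other amino acid carriers were mixed. Of 21 tested, 5 were called higher and 9 lower, against 32.6% and 38.0% of all genes, with a median of -0.20 against -0.05 over all genes. SLC1A3, a glutamate carrier, had 17.8 and 20.2 CPM in the controls against 34.1 and 32.5 CPM after knockdown (log2 fold change 0.78). SLC7A2, a cationic carrier and paralog of SLC7A1, had 138 and 146 CPM in the controls against 242 and 245 CPM after knockdown (0.77). SLC6A15, a carrier of branched-chain amino acids and proline, had 25.5 and 26.7 CPM in the controls against 41.4 and 43.7 CPM after knockdown (0.69). The libraries of the groups were well apart in all 3 genes, and each had a limma adjusted p-value under 0.05. The GC content and length correction left SLC1A3 higher (0.39) and turned SLC7A2 (-0.38) and SLC6A15 (-0.51), and under the region-wise correction they were at 0.65, 0.33 and -0.70. With the first correction 5 of the 21 carriers were called higher and 7 lower, against 32.6% and 33.4% of genes.

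Genes of glutathione synthesis and use lie downstream of cystine uptake. Of 9 tested, 2 were called higher and 5 lower, against 32.6% and 38.0% of all genes, with a median of -0.33. GSS, glutathione synthetase, had 93.2 and 93.5 CPM in the controls against 63.5 and 62.1 CPM after knockdown (log2 fold change -0.57). GGT1, which splits glutathione outside the cell, had 12.8 and 14.4 CPM in the controls against 9.002 and 8.66 CPM after knockdown (-0.57). GPX4, the peroxidase that uses glutathione against lipid peroxides, had 457 and 458 CPM in the controls against 342 and 329 CPM after knockdown (-0.45). All 3 were lower in both siAARS1 libraries and called. With limma after the whole-transcript correction 7 of the 9 genes were called lower, against 33.4% of genes, and 0 higher (0 at an unadjusted p-value under 0.05). Without correction, edgeR with TMM called 4 of the 9 higher and DESeq2 called 3, against 4932 and 4499 of all 14199 genes. The region-wise correction placed GPX4 at 0.074.

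Of 9 regulators of SLC7A11 transcription, 4 were called higher and 3 lower, against 32.6% and 38.0% of all genes, with a median of 0.05. The whole-transcript correction gave 7 higher and 1 lower, against 32.6% and 33.4% of genes, with a median of 0.37. The region-wise correction gave 4 higher and 2 lower of 8, against 35.9% and 35.5% of genes. NFE2L2, which encodes the activator NRF2, had 33.7 and 37.5 CPM in the controls against 87.5 and 89.2 CPM after knockdown. BACH1, a repressor that competes with NRF2 for the same sites, had 7.57 and 7.09 CPM in the controls against 29.95 and 31.9 CPM after knockdown. The transcripts of this activator and this repressor were thus both higher. Their log2 fold changes were 1.29 and 1.94, and they stayed higher and called at 1.16 and 0.72 after the whole-transcript correction and at 0.55 and 1.06 after the region-wise correction. ATF3, a further factor on the list, fell by 0.77 on the log2 scale, from 21.4 and 21.2 CPM to 12.5 and 11.6 CPM.

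ATF4 and its amino acid response targets outside the carriers were mostly lower on the deposited CPM. Of 20 tested, 1 was called higher and 15 lower, against 32.6% and 38.0% of all genes, with a median of -0.33. ATF3 is among them. TRIB3, an inhibitor of ATF4, had 40.6 and 41.6 CPM in the controls against 26.7 and 24.9 CPM after knockdown (log2 fold change -0.65). ATF5, the gene called higher, had 11.8 and 10.5 CPM in the controls against 18.0 and 20.1 CPM after knockdown (0.73). After the whole-transcript correction 3 were called higher and 12 lower, against 32.6% and 33.4% of genes, with a median of -0.16. After the region-wise correction 5 were higher and 9 lower, against 35.9% and 35.5% of genes, with a median of -0.0027.

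Of 12 partners of SLC38A9 at the lysosome, 5 were called higher and 5 lower, against 32.6% and 38.0% of all genes, with a median of 0.02. FNIP1, a partner of folliculin in the control of the Rag GTPases, had 5.43 and 6.90 CPM in the controls against 18.8 and 20.7 CPM after knockdown (log2 fold change 1.54), and its paralog FNIP2 had 12.9 and 10.5 CPM in the controls against 24.7 and 27.2 CPM after knockdown (1.09). LAMTOR2, a subunit of the Ragulator scaffold, had 107 and 96.4 CPM in the controls against 71.2 and 72.2 CPM after knockdown (-0.50). FNIP1 and FNIP2 stayed higher after both corrections, at 1.09 and 0.37 after the first and 0.54 and 0.53 after the second, while LAMTOR2 was at -0.21 and 0.096. The size of the rise varied with the processing. Over all 18 alternatives FNIP1 ran from 0.35 to 1.73 and FNIP2 from 0.37 to 1.22.

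The genes with a pattern over the 4 libraries nearest to that of SLC7A11 were ZFP1, RPAP2 and RP11-981G7.6, at Euclidean distances of 0.0265, 0.0651 and 0.0666 on log2(CPM + 1) less the control mean. Their log2 fold changes were 1.74, 1.75 and 1.77, near that of SLC7A11 because of the way they were picked. Their transcripts had GC contents of 38.2%, 41.2% and 41.9%. Those nearest to SLC1A5 were PARP16, ING1 and TUFM, at distances of 0.00435, 0.00593 and 0.00673. These distances rest on 4 libraries, 2 of them controls.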

How the data were processed

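The authors deposited 1 table of CPM values per gene for 4 libraries, each value scaled by them to the size of its library. The submitters' processing notes name RSEM 1.3.3 and hg38. The aligner, annotation, strand setting and normalization are not given in the sources used here. Each listed gene exceeded 1 CPM in at least 1 library. Dividing by the worth of 1 read gave whole numbers for 100% of values (tolerance 0.00051 CPM), which were taken as read counts. A count of 3 reads, the limit that 0 reads allow, equals 0.0880 to 0.0971 CPM, for counting error only. Replicates differed beyond sampling noise (chi-square per gene 3.63 and 3.61) and were kept separate.

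limma 3.58.1 (eBayes with trend, R 4.3.3) was fitted on log2(CPM + 1) to genes whose mean reached 1 CPM in either group, with Benjamini-Hochberg adjustment over all of them. Fold changes on this scale understate changes of low genes. Transcript properties and coordinates are those of GENCODE v29 (97.2% of genes), with the principal transcript of each gene. The corrections subtract, per library, a smooth trend (mgcv 1.9.3) of the deviation from the gene mean on GC content and length of the whole transcript, or of its coding and 3′ untranslated regions, scaled for the pseudocount. Alternatives were a pseudocount of 0.1, no filter, median scaling, quantile normalization, the replicate block, each library left out, a threshold of 0.01, and edgeR 4.0.16 (TMM or library size) and DESeq2 1.42.0 on the recovered reads. Use of the longest transcript, the region-wise correction, and corrected shares and levels were added after the data were seen. The fits were tested on simulated data. Ratios and sums were tested with exact permutations (scipy 1.17.1). The members and lists were chosen with earlier results of these data known. Genes named beyond the members are AARS1, up to 3 called genes of each list with the largest change (groups apart, at least 5 CPM in the higher group), and the 3 genes nearest in pattern to SLC7A11 and SLC1A5. Cell identity markers, SLC7A8, genes that overlap a member and the pseudogene SLC7A5P1 are named as well.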

Additional observations from a re-analysis of the deposited data

How the results depend on the processing

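SLC38A1, SLC38A2 and SLC1A4 kept their direction and call under all 18 alternatives, with log2 fold changes of 0.39 to 1.59, 0.12 to 1.49 and -0.62 to -0.19. Median scaling shifts all genes of a library alike and moved the median of all genes from -0.05 to -0.27. What lay behind the other changes was not tested. Under median scaling SLC7A5 (-0.12), SLC7A6 (-0.029) and SLC38A9 (-0.17) reversed, 3 members were called higher, 15 other carriers lower, and 8173 genes lower of 11479 called, with 28.8% of calls higher against 46.2% on the deposited CPM. The whole-transcript correction, alone or joined to the replicate block, reversed SLC3A2 (0.17), SLC7A1 (0.074), SLC1A5 (0.14) and SLC38A9 (-0.31), while SLC7A11 (0.082) and SLC7A6 (0.042) lost their call, and 2 members were called lower. On the longest transcript these were 0.17, 0.089, 0.15, -0.25, 0.097 and 0.078, with 2 members lower. SLC6A15 (-0.51, and -0.46 on the longest transcript) and SLC7A2 (-0.38 and -0.33) reversed too. That correction gave -0.086, -0.13, 0.19 and -0.37 for the ratios SLC7A11 to SLC3A2, SLC7A6 to SLC3A2, SLC38A1 to SLC38A2 and SLC1A4 to SLC1A5, the former pair reversed. The region-wise correction reversed SLC3A2 (0.13), SLC1A5 (0.21), SLC38A9 (-0.95), SLC6A15 (-0.70), GPX4 (0.074) and LAMTOR2 (0.096). Under it SLC7A11 (0.93) and SLC7A6 (0.22) stayed above SLC3A2. Quantile normalization gave SLC38A9 -0.18 (37.0% of calls higher). DESeq2 gave -0.085 for SLC3A2 and -0.053 for SLC7A1, not called, leaving 2 members lower, and edgeR with TMM gave -0.067 for SLC7A1. SLC7A5 (0.10) and SLC7A1 (-0.10) miss a threshold of 0.01. With 1 library left out, assuming that the lone library of a group varies like the others, SLC7A5 ran from 0.070 to 0.14, SLC3A2 from -0.17 to -0.10, SLC7A1 from -0.15 to -0.058, SLC38A9 from -0.074 to 0.17 (turned without siAARS1 replicate 2), the SLC38A1 to SLC38A2 ratio from 0.058 (without control replicate 1) to 0.14 and SLC7A11 from 1.62 to 1.86. Both groups use the same replicate numbers, which are not stated to mark pairs (correlation of deviations 0.118). With the replicate block 10389 genes were called against 10032, SLC7A11 stayed at 1.74, and none of the 10 transporters changed its call. Other carriers called lower went from 9 to 11, and all genes called lower from 5399 to 5619.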

Other observations

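SLC7A11-AS1, whose exons overlap those of SLC7A11 on the opposite strand, was at 0.704 and 0.441 CPM in the controls against 2.14 and 2.71 CPM after knockdown. The use of strand was not stated, so its reads and those of SLC7A11 cannot be told apart where they overlap. SLC7A5P1, a pseudogene of SLC7A5, had 0.599 to 1.23 CPM. How many reads the 2 copies share was not measured.

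The antioxidant response element, searched as TGACNNNGC on both strands, was in 5 of the 17 promoter windows of the transporters (29.4%) and in 13.3% of all windows. The genes were SLC3A2, SLC7A1, SLC7A5, SLC7A6 and SLC1A5, and no match overlapped one of the C/EBP-ATF response element. The match in SLC3A2, the heavy chain, is printed with the matching letters in capitals (RefSeq, GRCh38.p14).
SLC3A2, chr11:62881651-62881680, strand +: acgagggtgggTGACTCAGCgtcctccttc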
